A study of Homo sapiens with 12 samples.

Results

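The mock line of A172 was compared with the wild-type cells from which it was made. A172 is an established human glioblastoma line that grows attached to the dish. Arrays were assigned by their titles, 3 to wild-type A172 (non-transfected) and 3 to the mock line (A172-PC), which was stably transfected with the empty pcDNA3.1 vector. They were 6 of the 12 arrays of the series. The other 6 came from clone 7 and clone 8, which carry pcDNA3.1 with hHSS1, the gene now named EMC10, with a 6-His tag. The wild-type cells carry no vector and no transgene, and the mock line carries the vector without the transgene. Each culture was grown for 4 days and harvested in exponential growth, and by the study's methods the replicates were biological. The study's methods state that stable clones were kept in G-418, a drug that kills cells without the vector's resistance gene. They do not state whether the mock line was kept in it at harvest, or whether it is a single clone or a pool. Vector, selection and time in culture apart from the wild-type cells therefore cannot be told apart here. Each line is a single cell line, so that p-values measure the spread between cultures of these lines.

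An empty-vector line serves as the control for a transfected gene, because it has passed through the same transfection, selection and outgrowth as the line that carries the gene. Glioblastoma lines are known to be mixed in chromosome content and in expression. Glioblastoma cells in culture often make a mesenchymal matrix of collagens, fibrillin and periostin, and they respond to inflammatory cytokines and to TGF-beta. These are background, and none of them was measured apart from the transcripts.

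Levels were read on GeneChip Human Gene 1.0 ST arrays, which measure a gene with probes spread over its exons. They were log2 values, so that a difference of 1 is a 2-fold change, and the array medians lay between 8.60 and 8.67. A gene whose mean lay below the lower quartile of the arrays (7.00 to 7.12) is called dim here, because its level could not be told from background and the size of its fold is uncertain. A gene changed when its limma adjusted p was under 0.05 over all 18417 genes and its difference was at least 1.5-fold. Errors are SDs over 3 arrays for levels and standard errors for differences. The median gene had an SD of 0.0712 among the wild-type arrays and 0.0549 among the mock arrays. Among the clone arrays the medians were 0.0824 and 0.144, and 2 of those arrays went against their labels. Clone 7 replicate 3 correlated best with clone 8 replicate 2 (r = 0.9970), and clone 8 replicate 3 with clone 7 replicate 1 (r = 0.9963). All mock and wild-type arrays correlated best within their own group. The clone arrays enter the comparison of mock with wild-type only through the shared estimate of the spread, and counts are given with and without those 2 arrays. Clone means below cover all 3 arrays of a clone, replicate 3 included, and the means of replicates 1 and 2 are added for the genes in which they moved most.

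The cells carried markers of the glioma line under both labels. The intermediate filament genes VIM (13.72 in wild-type, 13.60 in mock) and NES (10.08 and 9.65), the adhesion receptor CD44 (13.20 and 13.53) and the transcription factor SOX9 (10.69 and 10.84) were well expressed. The astrocyte filament gene GFAP lay near the array median at 8.65 in both lines, and AQP4, S100B and SLC1A3, which also mark astrocytes, were dim in both. Of 10 glioma and astroglial markers 0 changed by limma over 12 or over 10 arrays. At an unadjusted p under 0.05 there were 4 of the 10, 2 higher and 2 lower, while 2221 of all 18417 genes (12.1%) passed that limit, a share against which such counts are to be read throughout. Of the 25 genes in the longer glioma and astroglial list 0 changed as well, with 5 higher and 2 lower at an unadjusted p under 0.05 and NES lower by the adjusted p alone (-0.44 ± 0.07, adjusted p = 0.00723). Of 18 markers of endothelial, leukocyte, epithelial, fibroblast and neuronal cells, 1 changed over 12 arrays and 2 over 10. These were the collagen genes COL1A1 in both fits and COL3A1 over 10 arrays alone, described below with the matrix. COL1A1 (10.48 and 9.76), COL3A1 (12.15 and 11.36), CLDN5 (8.78 and 8.84) and RBFOX3 (8.76 and 8.76) lay above the array medians in both lines. The others of the 18 lay below them, among them PTPRC (7.74 and 7.37), PECAM1 (6.69 and 6.69) and EPCAM (7.85 and 7.62).

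EMC10 itself, the gene that the clones overexpress, was lower in mock than in wild-type cells. Its product belongs to the EMC, a complex of the endoplasmic reticulum that helps membrane proteins into the lipid bilayer. Its log2 level was 11.13, 10.43 and 10.69 on the wild-type arrays and 9.20, 9.33 and 9.51 on the mock arrays. The groups did not overlap, and each mock array was below each wild-type array. The difference was -1.40 ± 0.20, or 2.65-fold (limma adjusted p = 0.00285). Clone 7 was at 11.57, 11.72 and 12.30 and clone 8 at 12.13, 12.18 and 11.75, above both controls. Of the other 9 members of the complex 0 changed in mock, and EMC6 was at 9.46 in wild-type and 9.62 in mock. Of these 9, 1 had an unadjusted p under 0.05. The vector of the mock line holds no EMC10, and what lowered it was not tested.

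Mock and wild-type differed in 124 of 18417 genes (0.673%), 55 higher in mock (0.299%) and 69 lower (0.375%). At least 2-fold differences numbered 38, 21 higher and 17 lower. With the adjusted p alone and no fold limit, 413 genes passed (2.24%), 185 higher (1.0%) and 228 lower (1.24%). In all 124 changed genes the 3 mock arrays lay outside the range of the 3 wild-type arrays, as they did in 28.9% of all genes tested. Without the 2 clone arrays that went against their labels, 199 genes changed (1.08%), 85 higher and 114 lower, and these held all 124. With the 6 mock and wild-type arrays alone, 200 changed. The median difference over all genes was 0.02.

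**Figure D1:**
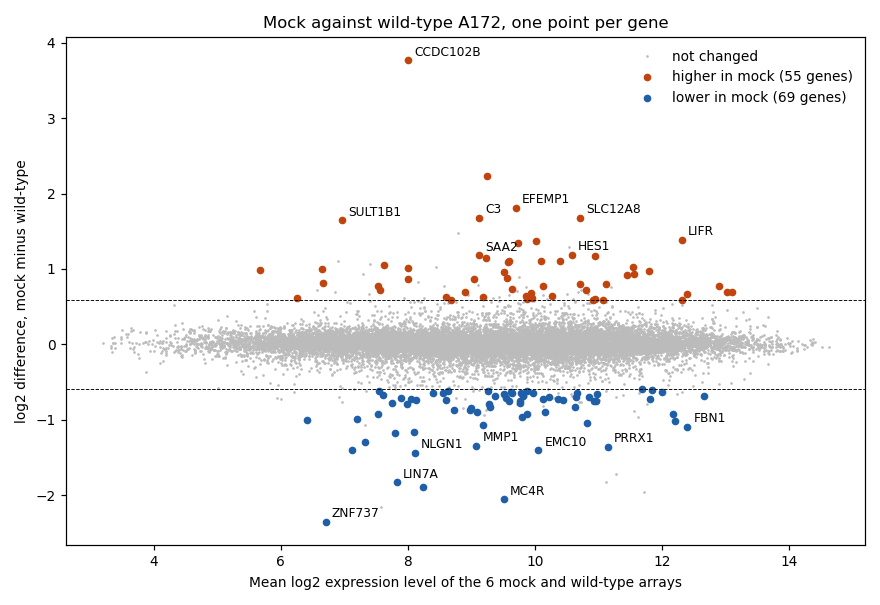
Log2 difference of each of 18417 genes in mock against wild-type (vertical axis) against the mean log2 level of both lines (horizontal axis), with dashed lines at 1.5-fold in each direction. Orange points are the 55 genes higher in mock and blue points the 69 lower, and CCDC102B stands highest at 3.77.

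CCDC102B, which encodes a coiled-coil protein of the centrosome, rose most in mock. It was at 6.23, 5.96 and 6.15 on the wild-type arrays and at 9.64, 9.92 and 10.08 on the mock arrays. Wild-type levels were dim and mock levels were above the array medians, with a difference of 3.77 ± 0.12 (13.6-fold, limma adjusted p = 6.47e-09). In the clones its mean level was 6.45 and 6.43, dim as in wild-type cells. PKD1L1-AS1, an antisense transcript, rose from 8.08, 8.26 and 8.03 to 10.44, 10.30 and 10.33, by 2.24 ± 0.11 (4.72-fold). SLC12A8, a gene of the cation chloride cotransporter family, rose from 9.80, 9.91 and 9.88 to 11.58, 11.52 and 11.52, by 1.68 ± 0.07 (3.2-fold). The arrays of each line lay close together in these genes. That the lines did not overlap was a condition for naming them, and it held in 28.9% of all genes.

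In some genes mock lay above the other 3 lines. The sulfotransferase gene SULT1B1 was at 5.93, 6.30 and 6.18 in wild-type, at 7.62, 7.90 and 7.83 in mock, and at a mean of 6.26 in clone 7 and 6.25 in clone 8. SULT1B1 was thus dim outside mock. The bradykinin receptor gene BDKRB1, named after its values were seen, was at 10.97, 11.09 and 11.18 in wild-type and at 12.04, 12.02 and 11.99 in mock. Its clone arrays ranged from 10.96 to 11.39. The Toll-like receptor homologue CD180 rose from a dim level of 6.15 ± 0.13 to 7.15 ± 0.17, and the clones were at 6.11 and 6.21. CD180 was the 1 of 19 leukocyte genes that changed, and SULT1B1 the 1 of 24 genes of drug export and metabolism. PAGE1, a cancer-testis gene on the X chromosome, was at 7.13 in wild-type, 7.92 in mock and 7.15 and 7.19 in the clones. FAM133A, also on the X chromosome, fell from 8.32, 8.34 and 8.51 to 7.22, 7.28 and 7.15 (-1.17 ± 0.09), and the clone arrays lay between 8.39 and 8.89. PAGE1 and FAM133A were the 2 changed of 16 genes in the cancer-testis and X-linked germline list. ANKRD30B and ANO5, an anoctamin that was dim in both lines, were named after their values were seen. They rose by 1.03 ± 0.10 and 0.99 ± 0.06 in mock, and in the clones they lay at differences from wild-type of -0.18 and -0.36 for ANKRD30B and -0.21 and -0.12 for ANO5. SULT1B1, PAGE1 and ANKRD30B have close relatives in the genome that could share probes, and their values are uncertain.

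**Figure D2:**
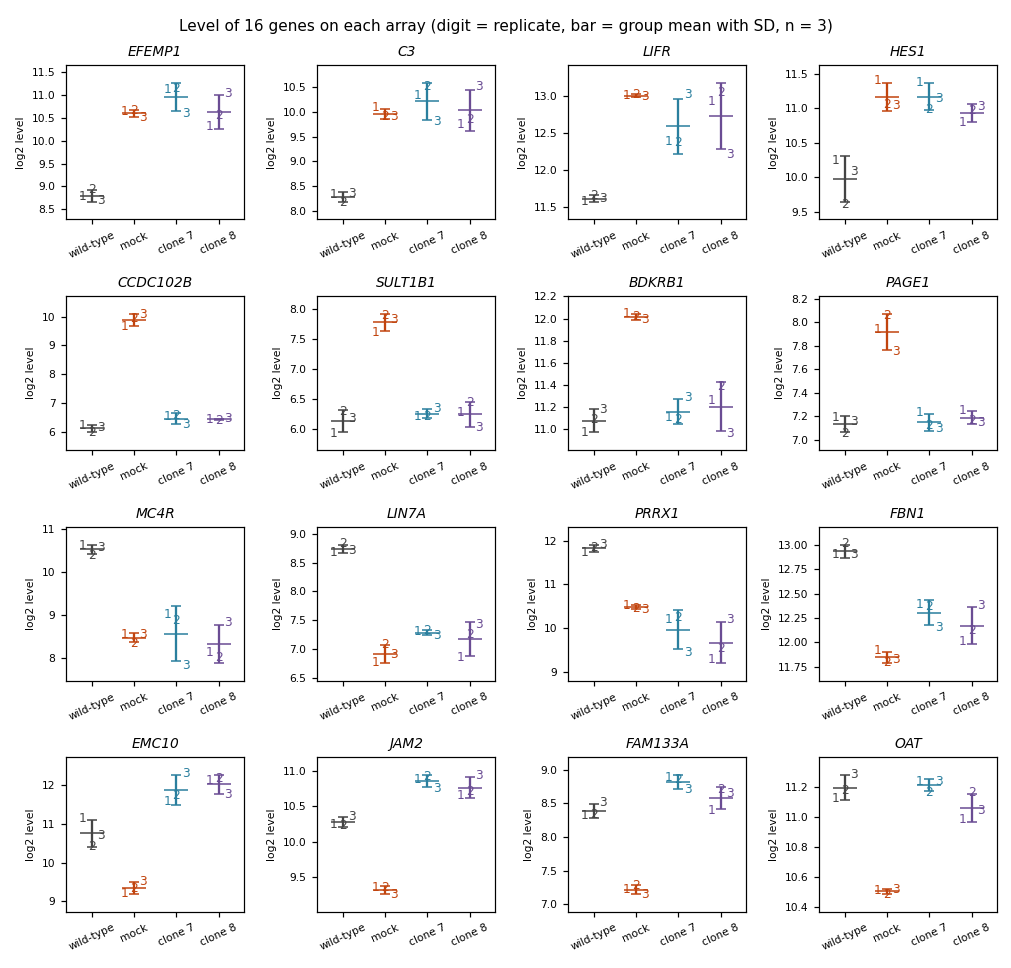
Log2 level (vertical axes) of 16 genes on each of the 12 arrays, by line (horizontal axes). A digit is an array with its replicate number, and the bars are group means with SDs (n = 3). In CCDC102B, SULT1B1, BDKRB1 and PAGE1 the mock arrays stand above the other 9, and in EMC10, JAM2, FAM133A and OAT below the other 9.

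Some genes of inflammation and of the acute phase rose in mock. Complement C3, the central protein of the complement cascade, was at 8.33, 8.17 and 8.36 in wild-type and at 10.08, 9.90 and 9.90 in mock (1.68 ± 0.20, 3.2-fold). SAA2, a serum amyloid A gene induced by inflammatory cytokines, was at 8.54, 8.49 and 8.56 and at 9.79, 9.73 and 9.63 (1.18 ± 0.06, 2.27-fold). SAA2 and its neighbour SAA1 are nearly identical, so that its value is uncertain. Complement factor I, CFI, which cleaves C3b, rose from 7.10 ± 0.10, at the limit of dim levels, to 8.15 ± 0.09, and the death ligand TNFSF10 from 7.58 to 8.45. Of 29 inflammatory cytokines and mediators measured, these 4 changed and 0 fell, with a median difference of 0.07. Of all genes 0.299% were higher and 0.375% lower, and the list was chosen with earlier results of these data known. The TNFSF10 call was lost when any 1 of the 6 arrays was left out (adjusted p from 0.0814 to 0.148). In the clones C3 was at 10.22 and 10.04 and SAA2 at 10.39 and 10.20, while TNFSF10 was at 7.80 and 7.41. Without replicate 3 of each clone, C3 was at 10.43 and 9.80 and TNFSF10 at 8.01 and 7.24.

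LIFR, the receptor of leukemia inhibitory factor, was among the brightest genes that rose. Its levels were 11.57, 11.66 and 11.61 in wild-type and 13.00, 13.02 and 12.98 in mock, a difference of 1.39 ± 0.20 (2.62-fold, limma adjusted p = 0.00259). IL6, a cytokine of the family to which leukemia inhibitory factor belongs, was at 7.85, 7.60 and 7.77 and at 8.68, 8.62 and 8.42. The difference in IL6 of 0.83 ± 0.37 did not pass the test over 12 arrays (adjusted p = 0.38) and passed it over 10 arrays (adjusted p = 0.000186). IL6 was named by a rule that required groups without overlap, as found in 28.9% of all genes. Its clone arrays ran from 7.75 to 9.26. Among 30 interferon-stimulated genes 0 changed by both limits of limma over 12 or over 10 arrays, and 3 had an unadjusted p under 0.05. BST2, which tethers viruses to the cell surface, was at 7.61 and 8.04 (adjusted p = 0.00687, under 1.5-fold), and IFI44 was at 8.56 and 8.01. Of 9 antigen presentation genes 0 changed in either fit and 1 had an unadjusted p under 0.05, with differences from -0.12 to 0.17.

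The receptor tyrosine kinases MET and ROR1 were higher in mock. MET, the receptor of hepatocyte growth factor, rose from 11.18, 11.34 and 11.42 to 12.28, 12.31 and 12.25 (0.97 ± 0.08, limma adjusted p = 3.43e-05). ROR1, a receptor for Wnt5a, rose from 8.65 to 9.79 (1.14 ± 0.21). The ROR1 call was lost without any 1 of mock replicates 1, 2 and 3 and wild-type replicates 2 and 3 (adjusted p from 0.0536 to 0.074). These were the 2 of 26 receptor tyrosine kinases that changed. In the clones MET was at 12.41 and 12.37 and ROR1 at 10.13 and 10.36 (9.86 and 10.58 without replicate 3 of each clone). Of 22 genes of ERK output and feedback, which act downstream of such receptors, 0 changed by limma in either fit, and 3 were higher and 2 lower at an unadjusted p under 0.05. DUSP5, a phosphatase that acts on ERK, was at 11.18 in wild-type and 11.44 in mock, and JUN was at 11.32 and 10.92, neither past the test.

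HES1, a transcriptional repressor and a target of the Notch pathway, rose in mock. Its levels were 10.25, 9.61 and 10.08 in wild-type and 11.40, 11.05 and 11.05 in mock. The wild-type arrays spread more than the mock arrays, and the lowest mock array was above the highest of them (1.18 ± 0.16, 2.27-fold, limma adjusted p = 0.00151). Clone arrays ranged from 10.79 to 11.38. HES1 was the 1 gene that changed of 34 measured in the Notch and Wnt list, which had a median difference of 0.04. Its promoter is shown because HES1 is a direct Notch target. The 250 bases before the start (RefSeq, GRCh38.p14, chr3:194135898-194136147, plus strand) hold GTGGGAA, the letters to which the Notch cofactor RBPJ binds, once at position -85 and in capitals here.
HES1 promoter: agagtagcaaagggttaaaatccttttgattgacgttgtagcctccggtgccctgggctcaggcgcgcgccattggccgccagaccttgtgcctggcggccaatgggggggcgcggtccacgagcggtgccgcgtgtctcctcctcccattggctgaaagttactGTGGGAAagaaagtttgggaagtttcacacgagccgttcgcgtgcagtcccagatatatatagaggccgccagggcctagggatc
On either strand GTGGGAA stands in 1906 of 35116 such promoters (5.43%). The match is a description of the sequence, and no binding was measured.

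In TGF-beta signalling the receptor and a signal transducer moved in opposite directions. TGFBR2, the type II receptor, fell from 11.34, 11.41 and 11.25 to 10.63, 10.62 and 10.49 (-0.75 ± 0.07, limma adjusted p = 0.000126). SMAD3, which carries the signal to the nucleus, rose from 9.65, 9.91 and 9.95 to 11.02, 10.93 and 10.86 (1.10 ± 0.08, 2.15-fold, limma adjusted p = 2.44e-05). These were the 2 of 23 measured genes of the list that changed, and its median difference was 0.13. By the adjusted p alone 4 of the list were higher and 1 lower. At an unadjusted p under 0.05 there were 8 higher and 2 lower. TGM2, a transglutaminase that crosslinks proteins, rose from 10.24, 10.40 and 10.42 to 11.61, 11.53 and 11.42 (2.25-fold). In the clones TGFBR2 was at 10.26 and 10.19, SMAD3 at 10.99 and 11.05, and TGM2 at 11.65 and 11.72. ANKRD1, a target of the YAP and TEAD factors, rose from 12.50 to 13.28 (0.78 ± 0.11) and was the 1 of 18 such targets that changed.

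Of 41 listed matrix genes 3 fell and 0 rose, against 0.375% of all genes lower and 0.299% higher. Outside the list 2 matrix or secreted genes, EFEMP1 and CEMIP, rose and are described with the proteases. FBN1, fibrillin 1 of the microfibrils, was at 12.90, 13.01 and 12.90 in wild-type and at 11.91, 11.80 and 11.83 in mock (-1.09 ± 0.09, 2.13-fold, limma adjusted p = 6.33e-05). COL1A1, a chain of type I collagen, was at 10.50, 10.52 and 10.41 and at 9.78, 9.76 and 9.74 (-0.72 ± 0.10). COL5A2, a chain of type V collagen that joins type I fibrils, fell from 12.31 to 11.68. The median difference over the list was -0.05. PRRX1, a homeobox factor of mesenchymal cells, fell from 11.73, 11.83 and 11.91 to 10.52, 10.46 and 10.43 (-1.35 ± 0.22). PRRX1 and COL1A1 were the 2 changed members of 20 fibroblast and mesenchymal genes. The clones were at 9.96 and 9.66 in PRRX1 (10.22 and 9.40 without replicate 3 of each), 9.72 and 9.77 in COL1A1, and 12.31 and 12.17 in FBN1.

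More matrix genes differed once the 2 clone arrays that went against their labels were left out of the spread. Then 8 of the 41 were lower in mock, while 1.08% of all genes changed in either direction. POSTN, periostin, was at 12.76, 12.75 and 12.57 in wild-type and at 10.73, 10.75 and 10.71 in mock. The arrays of each line lay close together. Groups without overlap were a condition for naming POSTN, and they were found in 28.9% of all genes. The difference of -1.96 ± 0.89 had an adjusted p of 0.406 over 12 arrays and of 6.2e-06 over 10. COL1A2, the other chain of type I collagen, was at 12.72 and 11.68, COL3A1 at 12.15 and 11.36, LAMA2, a laminin chain, at 9.66 and 8.79, and COL8A1 at 10.89 and 10.23. Their adjusted p over 12 arrays was 0.477, 0.36, 0.685 and 0.0504, and over 10 arrays it was at most 0.000845. Clone 7 replicate 3 and clone 8 replicate 3 had POSTN at 8.78 and 11.87, against 11.96 and 12.02 on the other arrays of clone 7 and 8.21 and 8.90 on those of clone 8.

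Outside the matrix, IGFBP5, which binds insulin-like growth factors, was at 12.03 in wild-type and 10.21 in mock, and GPM6A, a neuronal membrane glycoprotein, at 12.14 and 10.42. The embryonic myosin gene MYH3 was at 8.05 and 9.53, and SELENOP, a plasma selenium carrier, at 9.89 and 11.19. These 4 were picked among genes that passed the test over 10 arrays and not over 12. The pick also required mock arrays outside the range of the wild-type arrays, as in 28.9% of all genes. In all, 75 genes passed only over 10 arrays, 45 lower and 30 higher in mock.

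**Figure D3:**
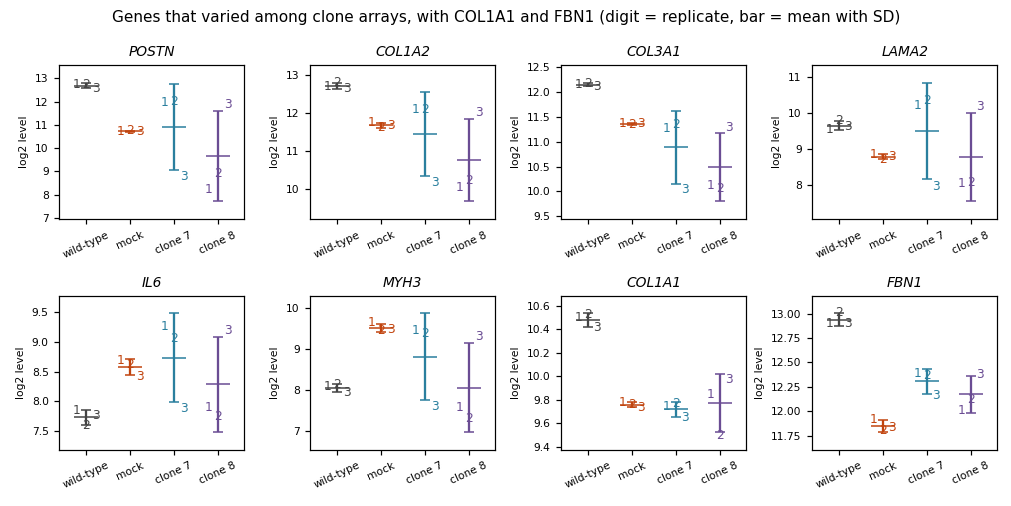
Log2 level (vertical axes) of 8 genes on each of the 12 arrays, by line (horizontal axes), with the replicate number as the mark and group means with SDs as bars (n = 3). In POSTN, COL1A2, COL3A1, LAMA2, IL6 and MYH3 replicate 3 of each clone lies near the other clone, while the 3 mock arrays and the 3 wild-type arrays each lie together.

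Of the protease and adhesion lists 4 genes changed, and these 4 fell. The lists as a whole held genes on both sides, since at an unadjusted p under 0.05 there were 5 higher and 6 lower proteases and inhibitors, 4 and 4 integrin and tight junction genes, and 3 and 4 cadherins and protocadherins. MMP1, interstitial collagenase, fell from 9.65, 9.77 and 9.83 to 8.50, 8.52 and 8.20 (-1.35 ± 0.15, 2.54-fold, limma adjusted p = 0.000406). MMP16, a membrane-type metalloproteinase, fell from 9.84 to 9.19, and these were the 2 of 29 proteases and inhibitors that changed. The protease genes ADAMTS6 and ANPEP, the last of which encodes aminopeptidase N, fell by 1.04 and 1.07 on the log2 scale. The ADAMTS6 call was lost without mock replicate 1 or 2 or wild-type replicate 2 or 3 (adjusted p from 0.0521 to 0.0593). JAM2, a junctional adhesion molecule, was at 10.24, 10.23 and 10.36 in wild-type, at 9.36, 9.35 and 9.26 in mock, and between 10.65 and 10.93 on the clone arrays. Its difference from wild-type was -0.96 ± 0.08 in mock (limma adjusted p = 5.08e-05), and it was the 1 of 28 integrin and tight junction genes that changed. PCDH10, a protocadherin, fell from 12.71 to 11.69 and was the 1 of 23 cadherins and protocadherins. Its call was lost when any 1 of the 6 arrays was left out (adjusted p from 0.0665 to 0.104). CEMIP, a hyaluronan-binding protein, and EFEMP1, fibulin 3, both secreted or matrix proteins outside the list, rose. EFEMP1 was at 8.77, 8.94 and 8.68 and at 10.64, 10.66 and 10.51 (1.81 ± 0.17, 3.5-fold). CEMIP rose by 1.34 ± 0.24, a call lost without mock replicate 1 or 2 or wild-type replicate 1 or 3 (adjusted p from 0.0572 to 0.074).

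Of 18 contractile and actin genes, TAGLN, transgelin of smooth muscle, fell from 10.14 to 9.39. That call was lost when any 1 of the 6 arrays was left out (adjusted p from 0.113 to 0.18) and after quantile normalization (0.0519). ACTA2, smooth muscle actin, was at 9.88 in wild-type and 10.48 in mock and passed over 10 arrays alone (adjusted p = 0.000184, against 0.0824 over 12). The 2 genes thus lay in opposite directions in mock.

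Of 26 neuronal genes NLGN1 and STMN2 fell and 0 rose, and 11 lay above 0 with a list median of -0.03. The receptor gene MC4R fell more. MC4R, the melanocortin 4 receptor, was at 10.62, 10.40 and 10.58 in wild-type and at 8.54, 8.35 and 8.55 in mock (-2.05 ± 0.27, 4.15-fold, limma adjusted p = 0.00132). MRAP2, an accessory protein of that receptor, was named after its value was seen, and fell from 7.95 to 7.27 (-0.68 ± 0.16, adjusted p = 0.0466). LIN7A, a scaffold protein of polarised membranes, fell from 8.68, 8.82 and 8.71 to 6.76, 7.07 and 6.90, a dim level (-1.83 ± 0.12, 3.55-fold). NLGN1, neuroligin 1 of synapses, fell from 8.83 to 7.39, and STMN2, a growth cone protein, from 8.38 to 7.59. The NLGN1 call was lost without mock replicate 2 (adjusted p = 0.0632) or wild-type replicate 3 (adjusted p = 0.0582). DGKB, a diacylglycerol kinase, and BCHE, butyrylcholinesterase, fell by 1.29 and 1.16 on the log2 scale, DGKB to a dim level of 6.68. In the clones MC4R was at 8.57 and 8.32 (8.94 and 8.07 without replicate 3 of each), LIN7A at 7.29 and 7.17, and DGKB at 6.89 and 6.75.

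MIR218-1, a microRNA gene within the axon guidance gene SLIT2, fell from 9.55, 9.91 and 9.66 to 8.88, 8.76 and 8.99 (-0.83 ± 0.15, limma adjusted p = 0.0137). The groups did not overlap, and the clone arrays lay between 8.01 and 8.72. SLIT2 itself was at 12.48 and 12.12 (adjusted p = 0.429). MIR218-1 and RNU4-1, a spliceosomal RNA, were the 2 of 400 small RNA genes that changed, and both are named after their values were seen. Whether the probes read the mature microRNA or its precursor cannot be told apart. The mature forms are given because they are the products of the gene that fell, with the seed, bases 2 to 8, in capitals (RefSeq, GRCh38.p14, chr4:20528299-20528319 and chr4:20528342-20528363, plus strand).
hsa-miR-218-5p: uUGUGCUUgaucuaaccaugu
hsa-miR-218-1-3p: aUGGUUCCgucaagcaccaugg

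Zinc finger genes included some of the largest falls. ZNF737, on chromosome 19, was at 7.58, 7.85 and 8.22 in wild-type and at 5.42, 5.53 and 5.65 in mock, a dim level (-2.35 ± 0.20, 5.1-fold, limma adjusted p = 5.08e-05). ZNF518B fell from 9.18 to 7.29 and ZNF22 from 7.82 to 6.42, the last also to a dim level. ZNF22 was at 8.00 and 8.08 in the clones (7.76 and 8.32 without replicate 3 of each). ZNF100, also on chromosome 19, was at 8.59, 8.68 and 8.67 and, in mock, at dim levels of 6.45, 6.72 and 6.33. It passed over 10 arrays (limma adjusted p = 1.66e-06) but not over 12 (0.0769). Of 233 ZNF genes on chromosome 19, 166 were below 0 with a median of -0.07, and 2 changed over 12 arrays and 7 over 10, all lower. Of 247 on other chromosomes, 136 were below 0 with a median of -0.01. There 2 changed over 12 arrays and 3 over 10, all lower. Over 12 arrays 0.858% of the ZNF genes on chromosome 19 and 0.81% of those elsewhere were lower, against 0.375% of all genes. Of all genes tested 43.1% were below 0. Zinc finger genes of chromosome 19 resemble one another in sequence, so that their probes can be shared and single values are uncertain.

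**Figure D4:**
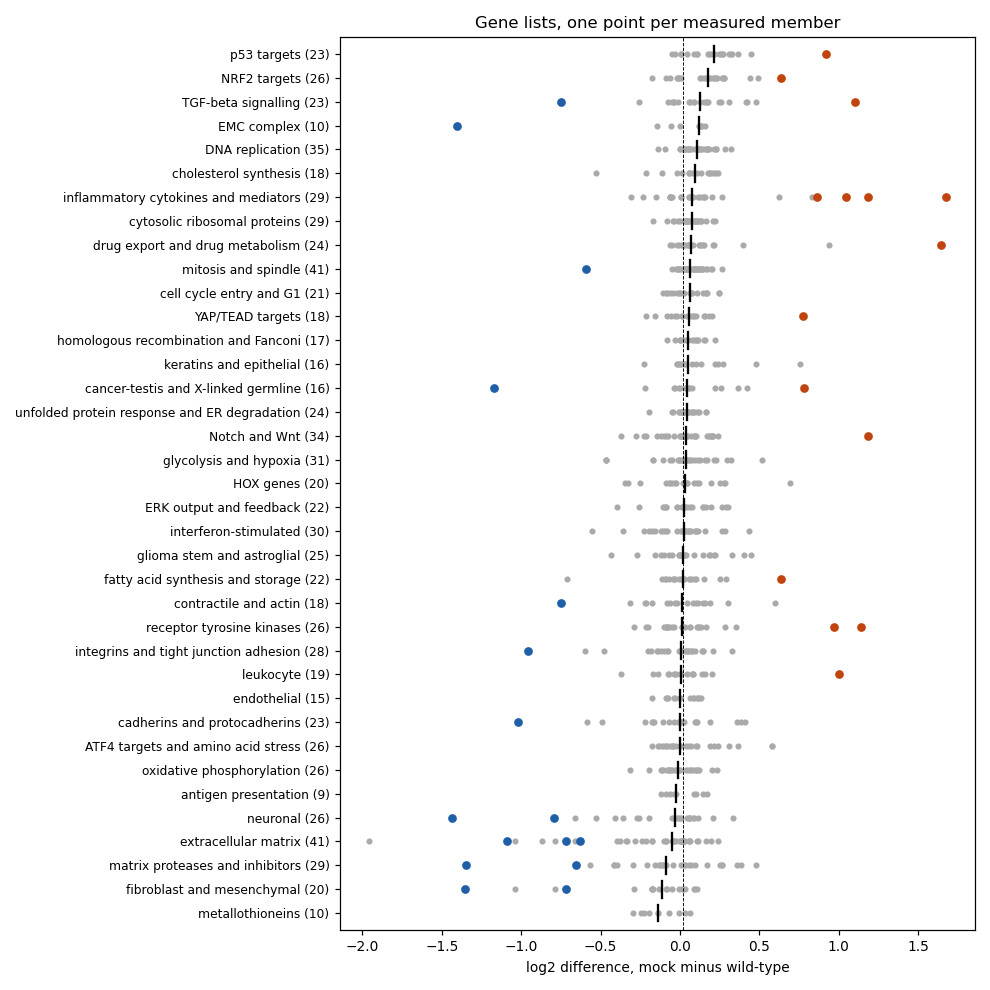
Log2 difference in mock against wild-type (horizontal axis) of each measured member of the gene lists (vertical axis, number of measured members in parentheses). Orange and blue points are members that changed, higher and lower, grey points are the others, and black ticks are list medians. The dashed line is the median of all genes at 0.02. The members that changed were 4 of 29 in the inflammatory list, all higher, and 3 of 41 in the matrix list, all lower. Of all genes 0.299% were higher and 0.375% lower.

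Among the cell division lists 1 gene changed. Of 35 DNA replication genes 0 changed by limma over 12 or over 10 arrays, 8 had an unadjusted p under 0.05, all higher (against 12.1% of all genes in either direction), 33 lay above 0, and the median was 0.11 against 0.02 over all genes. The clamp loader gene RFC4 was at 11.55 and 11.88 (adjusted p = 0.0677), and the helicase gene MCM7 at 12.02 and 12.30 (adjusted p = 0.0956). In the mitosis and spindle list 1 of 41 changed, MKI67, the proliferation marker, which fell from 11.90, 11.99 and 12.04 to 11.37, 11.38 and 11.39 (-0.59 ± 0.09). That call lay near the fold limit and was lost without wild-type replicate 3 (difference -0.56) and after centring the arrays on their medians (-0.58). Of the 41, 34 lay above 0, with a median of 0.06. MKI67 lies in the stretch of chromosome 10 described below. Of 21 genes of cell cycle entry and 17 of homologous recombination 0 changed in either fit, with 3 and 0 at an unadjusted p under 0.05. CDKN1A, which encodes the cell cycle inhibitor p21, was at 11.06 and 11.31.

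Among 23 targets of p53, GDF15, a stress cytokine, rose from 10.90, 11.01 and 11.06 to 11.98, 11.92 and 11.85 (0.92 ± 0.06, limma adjusted p = 8.89e-06). It was the 1 that changed, and 2 of the list were higher by the adjusted p alone. At an unadjusted p under 0.05 there were 13 of the 23, all higher, against 12.1% of all genes in either direction. In all 21 of the 23 lay above 0, and the median was 0.21. GDF15 in the clones was at 12.36 and 12.41. Of 26 NRF2 targets GCLM, a subunit of the enzyme that makes glutathione's precursor, rose from 8.86 to 9.49, with a list median of 0.18 and 7 of the 26, all higher, at an unadjusted p under 0.05. The GCLM call was lost without mock replicate 1 or 2 (adjusted p = 0.0502 and 0.0705), without wild-type replicate 2 (0.0569) and, by its fold, without wild-type replicate 1 (difference 0.53).

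Few genes of the metabolic and stress lists changed. In fatty acid synthesis and storage ELOVL7, an elongase, rose by 0.64 ± 0.08, the 1 of 22 that changed. PPARG, a nuclear receptor of fat storage, named after its value was seen, rose from 8.86, 9.12 and 9.11 to 10.02, 9.99 and 9.97. Of 31 glycolysis and hypoxia genes 0 changed by both limits in either fit, and 6 were higher and 2 lower at an unadjusted p under 0.05. By the adjusted p alone VEGFA (0.52 ± 0.06) and HK1 (0.30) were higher and ADM (-0.47 ± 0.06) and BNIP3 (-0.46) lower. BNIP3, like MKI67, lies in the stretch of chromosome 10 described below. Counts of 0 in both fits were found by limma for 18 cholesterol synthesis genes, 26 of oxidative phosphorylation, 24 of the unfolded protein response, 26 targets of ATF4, 29 cytosolic ribosomal proteins and 10 metallothioneins. At an unadjusted p under 0.05 these lists held 6, 2, 1, 6, 3 and 5 genes in that order, against 12.1% of all genes, and the 5 of 10 metallothioneins were all lower. By the adjusted p alone, the metallothionein MT1G (11.88 and 11.65, adjusted p = 0.0436) was the 1 member of these 6 lists that passed. Of 20 HOX genes 0 changed by both limits over 12 arrays and 1, HOXB9 (10.32 and 11.01), over 10, with 5 at an unadjusted p under 0.05 and with HOXD9 (-0.35) and HOXD10 (-0.33) lower by the adjusted p alone. Of 16 keratin and epithelial genes 0 changed over 12 arrays and 1, the factor ELF3 (9.48 and 10.24), over 10, with 5 at an unadjusted p under 0.05. KRT8 was at 13.24 and 13.72 (adjusted p = 0.000416, under 1.5-fold). Of 15 endothelial genes 0 changed in either fit, and 1 had an unadjusted p under 0.05.

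Neighbouring genes near the end of chromosome 10's long arm were lower in mock. Of the 69 genes that fell, 20 lie on chromosome 10, which held 679 of the genes tested. From ATE1 to the end of the arm 78 genes were measured, and 18 of them fell and 0 rose (23.1% against 0.375% of all genes). Among the 47 of these that were brighter than the array medians, 17 fell and 40 lay below 0, with a median of -0.46. The 601 genes of the chromosome before ATE1 had a median of 0.02, with 3 higher and 2 lower. The boundary at ATE1 was set after the values were seen. The 25 neighbouring genes with the lowest median of any such window ran from C10orf88 to BCCIP, with a median of -0.44 and 11 genes lower. The medians of that window were -0.41, -0.42 and -0.50 on the mock arrays against the wild-type mean, and from -0.05 to 0.08 on the clone arrays.

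The genes of this stretch do unrelated work. OAT, ornithine aminotransferase, was at 11.12, 11.18 and 11.28 in wild-type, at 10.51, 10.49 and 10.52 in mock and between 10.98 and 11.24 on the clone arrays, and was named after its values were seen. ABRAXAS2, a subunit of a deubiquitinating complex, fell from 10.49, 10.60 and 10.71 to 9.79, 9.70 and 9.62 (-0.89 ± 0.11), the largest difference of the stretch. IKZF5, a zinc finger factor of the Ikaros family, fell by 0.87 ± 0.13 from 9.42 to 8.55. The spindle checkpoint gene BUB3 was at 11.20, 11.35 and 11.37 and at 10.60, 10.53 and 10.54 (-0.75 ± 0.09). The differences of the 18 genes lay between -0.89 and -0.59. All mock arrays were below all wild-type arrays in 37 of the 78 genes (47.4%), against 13.3% of all genes. DNA was not measured, and the cause was not tested.

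**Figure D5:**
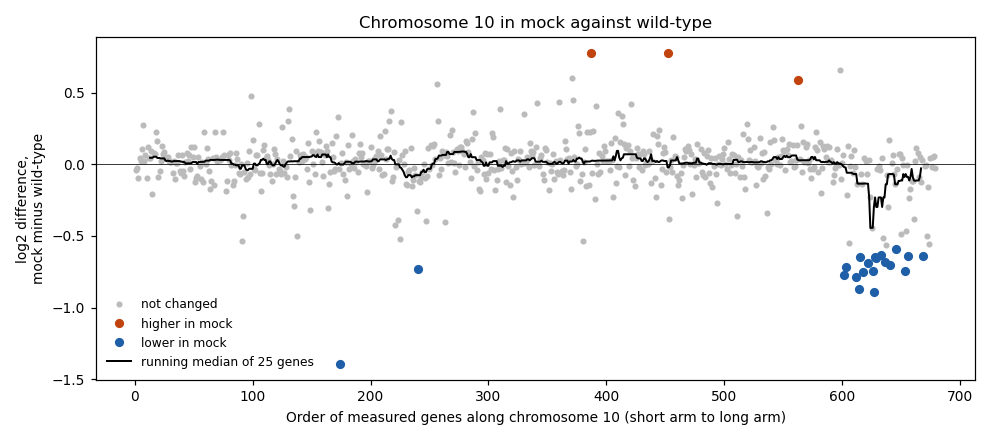
Log2 difference in mock against wild-type (vertical axis) of the 679 measured genes of chromosome 10 in their order from the short to the long arm (horizontal axis), with the running median of 25 genes as a line. Blue points are genes that fell and orange points genes that rose, and the line drops to -0.44 near the right end.

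The next lowest windows lay on chromosome 19. ALKBH6 to ZNF585A had a median of -0.27 and XRCC1 to ZNF235 one of -0.23, with 22 of 25 genes below 0 and 0 changed by limma in each. At an unadjusted p under 0.05 there were 16 and 13 of 25, all lower, against 12.1% of all genes in either direction, and over 10 arrays 1 and 0 changed. The 3 mock arrays gave medians from -0.29 to -0.21 in the first and from -0.26 to -0.23 in the second. The highest windows were CR1 to PPP2R5A on chromosome 1 (median 0.16), MET to NDUFA5 on chromosome 7 (0.16) and ASF1A to THEMIS on chromosome 6 (0.15). Over 12 arrays 0, 1 and 0 of their 25 genes changed by limma (MET), and over 10 arrays 0, 1 and 1. At an unadjusted p under 0.05 there were 5, 9 and 5, all higher. These medians were below the size of the chromosome 10 window.

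The other pairs of lines are given for scale with the same limits. Over 12 arrays clone 7 differed from wild-type in 247 genes (1.34%) and clone 8 in 306 (1.66%). From mock, clone 7 differed in 129 (0.7%) and clone 8 in 140 (0.76%). Over 10 arrays, without the 2 clone arrays that went against their labels, these 4 counts were 489, 554, 399 and 379, and mock against wild-type gave 199 in place of 124. The clone counts thus rest on those 2 arrays more than the count for mock and wild-type does. The counts share control arrays and were not tested against each other.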

How the data were processed

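Total RNA of 12 cultures of A172 was measured on GeneChip Human Gene 1.0 ST arrays. Each probe set had a deposited log2 level that the authors had already summarized and normalized. The submitters' processing notes name Partek, with settings not given in the sources used here. Of 33297 probe sets, 19460 had a single symbol, 1754 several and 12083 none listed, and 19429 matched RefSeq (GRCh38.p14) by Entrez number, which served for names and gene order. The probe set with the highest mean was kept for each of 18417 genes, and of 769 genes with several, 6 had any probe set changed, in 3 each one, and 0 in opposite directions. limma 3.58.1 in R 4.3.3 with data.table (1.17.8) fitted 4 groups of 3 arrays (8 residual degrees of freedom), adjusted by Benjamini-Hochberg. The fit was tested on simulated data. An array has no read depth, so the number of arrays limits the precision.

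Named genes included the 15 largest rises and falls among changed genes above the dim level whose mock arrays lay outside the wild-type range. The others were EMC10, up to 4 changed members of each list (up to 2 with the smallest adjusted p where none changed) and up to 3 of each window. Genes that passed over 10 arrays alone were added, with the same range condition. In genes named under that condition, groups that do not overlap follow from the rule and are no further result. Members and lists were chosen with earlier results of these data known. Alternatives were the arrays in the fit, scaling, dim genes, probe sets, the variance prior, the replicate block, limits and single arrays left out. Promoters were found for 95 of the 124 changed genes.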

Additional observations from a re-analysis of the deposited data

Results flagged for a closer look

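EMC10 moved in opposite directions against wild-type in the lines without and with the transgene. In mock it lay at a log2 difference of -1.40 and in the mean of both clones at 1.19. All 3 mock arrays were below all wild-type arrays and all 6 clone arrays were above them. Both differences use the same wild-type arrays. Set directly against mock, the mean of both clones was higher by 2.59 ± 0.18 (limma adjusted p = 7.82e-06).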

How the results depend on the processing

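The count of 124 genes (55 higher, 69 lower) was 200 (86 and 114) with the 6 arrays alone and 199 (85 and 114) with 10 arrays, an alternative chosen after seeing the data. With no fold limit it was 413 (185 and 228) and at 2-fold 38 (21 and 17). It ranged from 96 to 118 with a single array left out and from 122 to 126 under quantile normalization, median centring, the dim filter, mean probe sets and a robust prior. At an unadjusted p under 0.05 and 1.5-fold it was 182. Over 10 arrays clone 7 and clone 8 differed from wild-type in 489 and 554 genes, from mock in 399 and 379, and from each other in 617. Over 12 arrays the clones differed from each other in 0 by limma, with 1328 at an unadjusted p under 0.05. Of the genes on the lists, 30 changed over 12 arrays and 46 with the 6 arrays alone. EMC10 passed under every alternative run (-1.57 to -1.21 with single arrays left out), and the chromosome 10 window ran from -0.48 to -0.41. Of 50 changed genes named by the rule besides EMC10, 41 passed in every refit at the same limits. The changed limits, such as 2-fold, were not part of that count. The other 9 were ADAMTS6, CEMIP, GCLM, MKI67, NLGN1, PCDH10, ROR1, TAGLN and TNFSF10. No named gene reversed under the alternatives run.

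The replicate numbers showed no sign of pairing the samples. Whether same-numbered cultures were handled together is not stated. Same-numbered deviations correlated at -0.262, -0.0671 and -0.152, and with the number as a block 107 genes changed (49 higher, 58 lower). PCDH10, TAGLN and TNFSF10 then had adjusted p-values of 0.0631, 0.0931 and 0.0595.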

Other observations

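Chromosome 21 lay slightly lower in mock. Of its 236 genes 153 were below 0, with a median log2 difference of -0.07, and of the 118 brighter than the array medians 95 were below 0, with a median of -0.12. The median of these 118 was -0.12, -0.13 and -0.15 on the mock arrays against the wild-type mean, and from -0.02 to 0.08 on the clone arrays. JAM2 was the 1 gene of the chromosome that changed.

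Chromosome 7 lay slightly higher, with 230 of 833 genes below 0 and a median of 0.05. Over all genes tested the median was 0.02 and 43.1% were below 0.

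Of 13837 probe sets without a single gene symbol, 33 passed both limits in mock against wild-type, 6 higher and 27 lower. They have no gene name here. Among 361 olfactory receptor genes 0 changed by limma over 12 arrays, 20 had an unadjusted p under 0.05 and 2 changed over 10 arrays, and of 477 uncharacterized and open reading frame genes 1 changed, C10orf88 of the chromosome 10 window.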
